A study of Mus musculus with 17 samples.

Results

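Cass4, Sorl1, Nrgn, Klk1b27, Wnt10a and Ifitm10 are 6 genes, of 24537 listed in each table, that stood higher in Notch1/2 knockout than in wild type OTII Th2 cells of the mediastinal lymph node. They were chosen by that difference in RPKM, with no fixed threshold. The lymph node knockout and wild type values of the 6 genes are therefore a description and carry no test. All 6 were found under their symbols in each of the 17 libraries, each with the same RefSeq transcript throughout.

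RNA of FACS-sorted mouse T cells was sequenced by Smart-seq2, a full-length protocol for small amounts of RNA. The groups, called by their library titles, were MLN-OTII-KO (4 libraries) and MLN-OTII-WT (3), cult-OTII-KO (2) and cult-OTII-WT (2), and BAL-GATIR (3) and MLN-GATIR (3). All OTII groups came from mice with a transgenic T cell receptor for ovalbumin, and their KO groups carry the label Notch1/2-KO in addition. The MLN-OTII cells were taken from the mediastinal node, which drains the lung, of mice with allergen-driven airway inflammation. The column headers of these libraries carry the label OVA-HDM, and those of the GATIR libraries name no allergen. The cult-OTII cells were naive spleen T cells cultured on plates coated with anti-CD3/CD28 for 7 days, with IL-4 added and IFN-γ and IL-12/23 blocked by antibodies. The GATIR mice carry a yellow fluorescent reporter of Gata3 and no knockout. Their inflamed airways gave BAL-GATIR cells (bronchoalveolar lavage) and their nodes gave MLN-GATIR cells. Ages, and the driver of the Notch1/2 deletion, are not given in the sources used here.

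Notch receptors are cut when a neighbouring cell presents a ligand, and the freed intracellular part joins the DNA-binding protein Rbpj to switch on target genes. In helper T cells the pathway is known for promoting Gata3, Il4 and the Th2 fate. Values below are scaled RPKM (reads per kilobase of transcript at a common library size, brought to 1 scale by a factor per library), so levels of different genes are set side by side per length. The read totals were 16.3 to 27.5 M (megareads) per library. Between 12177 and 14385 genes read 0 in the GATIR libraries, against 9432 to 10128 in the OTII libraries. Floors given for a reading of 0 cover counting error only and may be too low for GATIR.

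The label Notch1/2-KO names 2 genes, and the level of Notch1 was lower and that of Notch2 higher in the lymph node knockout. Notch1 averaged 10.9 ± 2.31 in MLN-OTII-KO and 47.9 ± 1.47 in MLN-OTII-WT libraries (SD, n = 4 and 3), and the Notch target Dtx1 averaged 0.898 ± 0.216 and 43.7 ± 7.93. Notch2 averaged 16.2 ± 2.09 in MLN-OTII-KO and 7.88 ± 0.305 in MLN-OTII-WT libraries (log2 0.95, limma adjusted p 5.95e-04). The Notch2 level thus goes against the label, and all directions below are those of the libraries labelled KO. RPKM spans all exons and cannot show the loss of 1 of them, so the Notch2 deletion itself was not checked by it. In culture Notch1 read 4.23 and 1.06 in the cult-OTII-KO libraries, against 26.3 and 29.4 in the cult-OTII-WT libraries, and Notch2 averaged 6.90 ± 0.365 and 7.51 ± 0.198 (SD, n = 2 each). All 7 T cell markers were present in every group. Summed over the list, 5 Th2 markers (Gata3, Il4, Il5, Il13, Il1rl1) ran from 55.9 to 89.5 in MLN-OTII-KO, against 104 to 131 in MLN-OTII-WT libraries. The column headers of the lymph node OTII libraries carry a number pair, and the 4 knockout and 3 wild type libraries share 2 leading numbers per genotype. Libraries with a common leading number may share a source, so p-values within the lymph node may measure partly technical spread. Values after averaging such libraries stand beside the calls that this ended.

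Markers of macrophages, basophils and B cells were low in the lymph node OTII libraries, and the summed markers of regulatory T cells were not. The 8 macrophage markers summed to 2.69 to 4.21 in MLN-OTII-KO and to 5.24 to 6.47 in MLN-OTII-WT libraries, with Ear2 at 0 in both. The 6 basophil markers summed to 0.134 to 0.713 and to 1.94 to 2.54, with Mcpt8, Fcer1a and Ms4a2 at 0 in both. The 6 B cell markers summed to 14.5 to 19.7 in MLN-OTII-KO and to 13.9 to 17.1 in MLN-OTII-WT libraries. The 4 regulatory T cell markers (Foxp3, Ikzf2, Il2ra, Ctla4) summed to 109 to 194 in MLN-OTII-KO and to 143 to 203 in MLN-OTII-WT libraries. Of these, 3 averaged at least 1 in MLN-OTII-KO, and all 4 did in MLN-OTII-WT. In bulk RNA such as this, fewer cells of a type and less RNA per cell cannot be told apart.

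The promoter windows of 5 of the 6 genes were found among the RefSeq promoters (GRCm38.p6), as 250 bases before each start. They were searched on both strands for TGGGAA, the core that Rbpj is known to bind. Windows of Cass4 and Klk1b27 hold it, and those of Sorl1, Nrgn and Ifitm10 do not. Of 32851 promoter windows in the same table, 21.6% hold the motif. That share is counted by window, since some genes have several, and 2 of the 8 windows of these 5 genes hold the motif. The difference between these shares was not tested. The windows with a match are shown with those of Klk1b9 and Klk15, the kallikreins of the same cluster that were also higher in the knockout. Capitals mark TGGGAA or its reverse complement TTCCCA.
Cass4 (chr2:172393394-172393643, plus strand): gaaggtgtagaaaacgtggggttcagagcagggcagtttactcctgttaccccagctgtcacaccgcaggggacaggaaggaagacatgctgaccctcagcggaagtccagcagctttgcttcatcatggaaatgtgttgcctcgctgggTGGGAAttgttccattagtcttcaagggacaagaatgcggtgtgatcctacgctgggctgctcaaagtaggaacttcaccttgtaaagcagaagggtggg
Klk1b27 (chr7:44052040-44052289, plus strand): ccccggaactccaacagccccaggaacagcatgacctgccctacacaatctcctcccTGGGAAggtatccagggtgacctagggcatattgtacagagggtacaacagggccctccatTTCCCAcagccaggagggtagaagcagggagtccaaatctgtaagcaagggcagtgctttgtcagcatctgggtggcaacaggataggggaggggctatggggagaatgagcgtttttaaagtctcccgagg
Klk1b9 (chr7:43975811-43976060, plus strand): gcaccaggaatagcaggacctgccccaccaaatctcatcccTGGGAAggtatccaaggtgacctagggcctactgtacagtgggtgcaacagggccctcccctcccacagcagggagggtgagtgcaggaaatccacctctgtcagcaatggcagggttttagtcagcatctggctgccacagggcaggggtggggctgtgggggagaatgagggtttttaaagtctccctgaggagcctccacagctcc
Klk15 (chr7:43931425-43931674, plus strand): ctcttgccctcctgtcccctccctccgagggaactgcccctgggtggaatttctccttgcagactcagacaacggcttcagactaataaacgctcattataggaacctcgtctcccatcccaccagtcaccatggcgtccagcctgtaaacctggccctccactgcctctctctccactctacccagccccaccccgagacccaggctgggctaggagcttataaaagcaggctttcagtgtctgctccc
The Cass4 match begins 100 bases before the RefSeq start of its window, those of Klk1b27 193 and 132 bases before it, and that of Klk1b9 209 bases before it. The Klk15 window holds no match. For Cass4 and Klk15 the RefSeq start lies upstream of the start of the transcript in the deposited tables, and for Klk1b27 and Klk1b9 the window ends where that transcript begins. The Klk1b27 window was identical to that of Klk1b9 at 73.5% and to that of Klk15 at 48.2% of aligned positions. The upstream match of Klk1b27 lies in a stretch common to it and Klk1b9, and the downstream match of Klk1b27 has no counterpart in capitals in Klk1b9. A match is a string of letters and says nothing here about binding.

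All 6 genes were at least 3.08 times as high in the lowest MLN-OTII-KO library as in the highest MLN-OTII-WT library. Among 10869 genes tested in the lymph node, 18.1% were called by limma at an adjusted p under 0.05 (10.4% higher), 32.2% had an unadjusted p under that threshold, and 17.2% had knockout values wholly above wild type ones. Nothing is read from the members against these shares, since the same libraries chose them. On the log2(scaled RPKM + 1) scale the differences ranged from 1.87 (Sorl1, rank 39 of all tested genes) to 2.89 (Nrgn, rank 3). Klk1b27, Wnt10a and Ifitm10 ranked 4, 5 and 6, and Cass4 ranked 14.

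**Figure D1:**
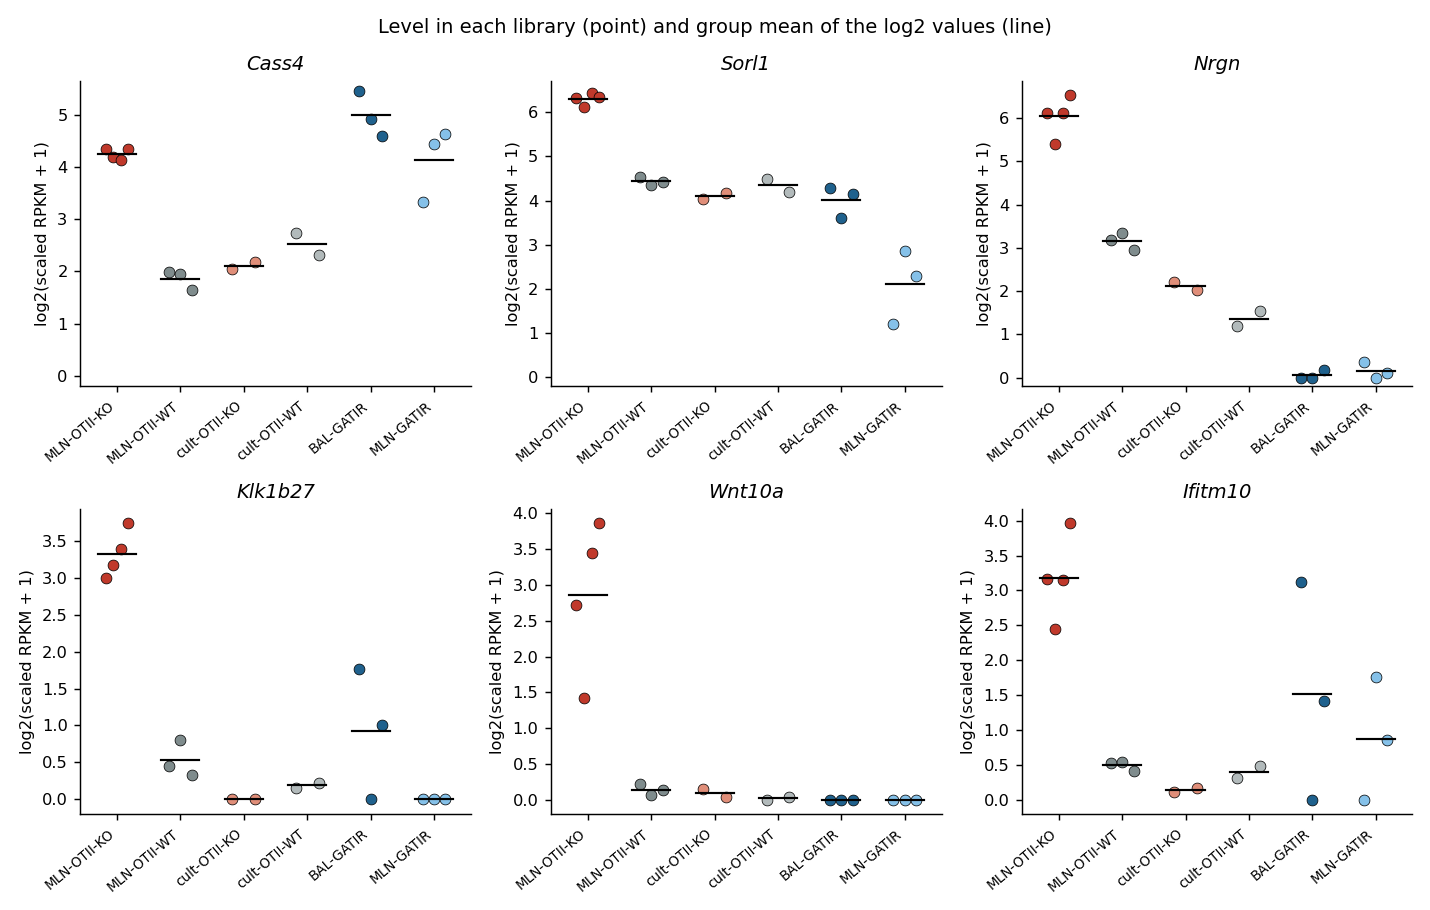
Each point is the level of the gene in 1 library as log2(scaled RPKM + 1), by group, and each line is the group's mean of those values. The MLN-OTII-KO libraries stand above the MLN-OTII-WT libraries for all 6 genes, which chose the genes. Cass4 alone has its highest group mean in BAL-GATIR, and Wnt10a reads 0 in all 6 GATIR libraries.

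Cass4 encodes a member of the Cas family, scaffolds at cell adhesions on which focal adhesion kinases and adaptors assemble. It lies on mm10 at chr2:172393794-172433757, plus strand. Cass4 measured 19.2, 17.1, 16.6 and 19.4 in the MLN-OTII-KO libraries, against 2.96, 2.87 and 2.14 in the MLN-OTII-WT libraries. The 4 knockout values lay within 1.16 times of each other, the narrowest spread of the 6 genes. The means were 18.1 ± 1.39 and 2.65 ± 0.449 (SD), a ratio of 6.81. In the GATIR mice, which carry no knockout, Cass4 measured 42.9, 29.2 and 23.0 in the BAL-GATIR libraries, against 9.07, 20.7 and 23.7 in the MLN-GATIR libraries. Those groups overlap. They also differed in markers of other cells. Macrophage markers summed to 3083 to 7264 in BAL-GATIR and 10.99 to 49.99 in MLN-GATIR, where Marco, Mrc1, Ear2 and Adgre1 read 0. Basophil markers summed to 148 to 276 and to 554 to 880, with Fcer1a, Gata2 and Ms4a2 at 0 in both groups. Cpa3 was also at 0 in BAL-GATIR. The part of such cells in these levels was not tested. Between BAL-GATIR and MLN-GATIR the log2 difference in Cass4 was 0.85 (SE 0.40), and the limma adjusted p was 0.284 (0.0512 to 0.631 under the alternatives). In culture Cass4 measured 3.11 and 3.52 in cult-OTII-KO, against 5.65 and 3.98 in cult-OTII-WT libraries. Both knockout cultures lay below both wild type cultures, as for 10.8% of all genes tested, with a log2 difference of -0.42 (SE 0.21), and it did not pass (limma adjusted p 0.99974, alternatives 0.256 to 1.0). By group mean the order was BAL-GATIR, MLN-OTII-KO, MLN-GATIR, cult-OTII-WT, cult-OTII-KO and MLN-OTII-WT. MLN-OTII-KO and MLN-GATIR overlapped, and no other neighbours in the order did.

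Of 16 other genes listed for Cas scaffolds and focal adhesion, 10 were tested in the lymph node knockout comparison, where 3 rose and 1 fell. The median log2 difference was 0.09, against 0.02 over all genes tested. Nedd9, the Cas scaffold best known in lymphocytes, rose to 30.5 ± 1.12 in MLN-OTII-KO, against 23.5 ± 2.16 in MLN-OTII-WT (log2 0.37, limma adjusted p 0.0160). The focal adhesion protein Zyx (132 ± 23.8 and 88.8 ± 7.94, adjusted p 0.0275) and the adaptor paxillin, Pxn (52.4 ± 8.30 and 37.0 ± 1.81, adjusted p 0.0281), rose with it. The kinase Fyn, named after its values were seen, fell (119 ± 16.0 and 160 ± 17.01, log2 -0.42). The Nedd9 call was lost under 6 of 14 alternatives, among them the averaging of libraries with a common leading number (log2 0.33, limma adjusted p 0.0610, up to 0.298 over the alternatives), and those of Zyx and Pxn under 8 each. The nearest genes on each side of Cass4 differed in the test. Rtfdc1, 6821 bases beyond its end, rose to 83.1 ± 7.58 in MLN-OTII-KO, against 55.0 ± 2.38 in MLN-OTII-WT (log2 0.58, limma adjusted p 0.00275). Cstf1, a subunit of the cleavage stimulation factor of mRNA ends, averaged 24.2 ± 0.641 and 25.5 ± 0.423 (adjusted p 0.499). The annotated antisense gene Gm14455 overlaps Cass4, and the strand setting of the authors' counting is not given in the sources used here.

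Sorl1 encodes a sorting receptor of the VPS10 family that carries proteins, the amyloid precursor protein among them, between endosomes and the Golgi. It lies on mm10 at chr9:41968489-42124289, minus strand. Sorl1 measured 78.4, 68.0, 85.9 and 80.4 in the MLN-OTII-KO libraries, against 22.1, 19.4 and 20.5 in the MLN-OTII-WT libraries. It was the most abundant of the 6 genes in both groups and had the smallest ratio of means, 3.79 (78.2 ± 7.49 and 20.7 ± 1.32). Sorl1 measured 18.3, 11.2 and 16.8 in the BAL-GATIR libraries, against 1.32, 6.24 and 3.87 in the MLN-GATIR libraries. Every airway library lay above every node library, as for 13.1% of all genes tested, with a ratio of means of 4.06. The log2 difference was 1.89 (SE 0.52), and the limma adjusted p of 0.0786 missed the threshold. Under the alternatives it ran from 3.41e-04, in the fit of all 6 groups together, to 0.242. In culture Sorl1 measured 15.3 and 16.99 in cult-OTII-KO, against 21.6 and 17.2 in cult-OTII-WT libraries. The log2 difference was -0.24 (SE 0.17) and did not pass (limma adjusted p 0.99974, alternatives 0.303 to 1.0). MLN-OTII-WT and cult-OTII-WT overlapped, as did cult-OTII-KO and BAL-GATIR, so between the highest group, MLN-OTII-KO, and the lowest, MLN-GATIR, the middle of the order is not resolved.

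Of 17 other genes of VPS10 receptors and endosomal sorting, 11 were tested in the lymph node knockout comparison, and 1 rose. That gene, Aplp2, encodes a relative of the amyloid precursor protein. It averaged 27.4 ± 0.983 in MLN-OTII-KO and 18.1 ± 0.980 in MLN-OTII-WT (log2 0.57, limma adjusted p 0.00134), and it kept its call under all 14 alternatives. Aplp2 also rose in the airway, to 90.2 ± 6.25 in BAL-GATIR against 36.3 ± 8.30 in MLN-GATIR (log2 1.31, limma adjusted p 0.0112). That call was lost without MLN-GATIR replicate 2 or without replicate 3 (highest adjusted p 0.0677). The median log2 difference of the list was 0.06 in the lymph node, against 0.02 over all genes tested. The nearest listed genes, 3110039I08Rik and 4930546K05Rik, were too low to be tested. The annotated antisense gene Gm16214 overlaps Sorl1, with the same limit on strand as for Cass4.

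Nrgn encodes neurogranin, a small protein best known from neurons, where it binds calmodulin at low calcium and lets it go when calcium rises. It lies on mm10 at chr9:37544493-37552745, minus strand. Nrgn measured 68.6, 41.6, 68.8 and 91.5 in the MLN-OTII-KO libraries, against 8.15, 9.08 and 6.76 in the MLN-OTII-WT libraries. The means were 67.6 ± 20.4 and 7.99 ± 1.17, a ratio of 8.46. The highest knockout library held 2.20 times the lowest. In culture Nrgn measured 3.61 and 3.10 in cult-OTII-KO, against 1.29 and 1.89 in cult-OTII-WT libraries. It was the tested member whose knockout cultures both lay above the wild type cultures, as for 10.4% of all genes tested. The log2 difference was 0.76 (SE 0.21) and did not pass (limma adjusted p 0.99974, alternatives 0.205 to 1.0). Nrgn was near the floor in the reporter mice. It measured 0, 0 and 0.123 in BAL-GATIR (3 reads in all) and 0.291, 0 and 0.0773 in MLN-GATIR libraries (10 reads in all), and was not tested there. The groups ran MLN-OTII-KO, MLN-OTII-WT, cult-OTII-KO and cult-OTII-WT with no overlap between neighbours, and the GATIR groups at the bottom overlapped.

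Of 19 other genes for calmodulin and its partners, 15 were tested in the lymph node knockout comparison, and 5 rose. The median log2 difference was 0.10, against 0.02 over all genes tested, of which 10.4% were called higher. The kinase gene Camk1d averaged 8.52 ± 0.622 in MLN-OTII-KO and 4.51 ± 0.308 in MLN-OTII-WT (log2 0.79, limma adjusted p 7.63e-04). Its relative Camk1 averaged 2.16 ± 0.380 and 0.918 ± 0.0400 (log2 0.71, limma adjusted p 0.00495). Each lost its call in 1 of 14 alternatives, the fit of all 6 groups. Camk1 reached the filter only through the knockout libraries (highest MLN-OTII-WT value 0.955). Its call and its place in the count are therefore no support for a direction. Camk2g also rose (24.0 ± 2.51 and 18.3 ± 0.921, log2 0.37, adjusted p 0.0279), with its call lost under 6 of 14 alternatives. The other 2, named after their values were seen, were Camk2b (log2 0.53, limma adjusted p 0.0285) and the calcineurin subunit Ppp3cc (log2 0.32, limma adjusted p 0.0379). Their calls are not among those followed over the alternatives. Of the calmodulin genes, Calm3 averaged 167 ± 19.5 in MLN-OTII-KO and 175 ± 17.5 in MLN-OTII-WT and did not pass (log2 -0.07, adjusted p 0.723). Vsig2, whose end lies 288 bases from that of Nrgn on the opposite strand, averaged 0.598 ± 0.220 in MLN-OTII-KO and 0.0265 ± 0.0230 in MLN-OTII-WT libraries, below the filter on low values.

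Klk1b27 encodes a tissue kallikrein, a secreted serine protease of a family that is expanded in mice and best known from salivary gland. It lies on mm10 at chr7:44052290-44056711, plus strand. Klk1b27 measured 6.99, 8.04, 9.51 and 12.5 in the MLN-OTII-KO libraries, against 0.372, 0.742 and 0.261 in the MLN-OTII-WT libraries. The counts behind these values were 129, 180, 191 and 207 reads in knockout and 6, 14 and 5 reads in wild type libraries. The means were 9.25 ± 2.38 and 0.459 ± 0.252, a ratio of 20.2 that rests on 25 wild type reads. In the airway it measured 2.39, 0 and 1.02 in BAL-GATIR libraries (37, 0 and 17 reads), and all 3 MLN-GATIR libraries held none. By counting error alone, a count of 0 allows up to 0.159 to 0.177 there (3 reads per library). Both cult-OTII-KO libraries read 0 and the cult-OTII-WT libraries held 2 and 3 reads, so no ratio is given. BAL-GATIR and MLN-OTII-WT overlapped, and MLN-OTII-KO stood above every other group.

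The kallikrein genes form a cluster on chromosome 7, and most of them were near 0 in these cells. Of 25 other kallikreins, 3 passed the filter in the lymph node, where 2 rose and 1 fell. Klk1b9 and Klk15 reached the filter only through the knockout libraries, so that count is no support for a direction. Klk1b9 measured 6.80, 5.38, 6.46 and 7.87 in MLN-OTII-KO, against 0.442, 0.108 and 0.373 in MLN-OTII-WT libraries. It rose by 2.54 on the log2 scale (SE 0.15, limma adjusted p 2.08e-05). Klk15 measured 4.15, 2.96, 7.40 and 6.08 in MLN-OTII-KO, against 0, 0.308 and 0.243 in MLN-OTII-WT libraries, and rose by 2.33 (SE 0.25, limma adjusted p 4.29e-04). Both calls held under all 14 alternatives. They too are no support for a direction, since the filter was reached only through the knockout libraries. Klk8, the most abundant kallikrein here, went the other way. It fell to 46.0 ± 8.78 in MLN-OTII-KO, against 76.1 ± 4.47 in MLN-OTII-WT (log2 -0.73, limma adjusted p 0.00923), a call lost in the fit of all 6 groups (0.155). Klk1b9 lies 71914 bases and Klk15 112700 bases from Klk1b27, with 3 and 7 listed genes in between, and Klk8 lies 248464 bases away. Genes between them were below the filter. Klk1b8 averaged 0.409 ± 0.168 in MLN-OTII-KO and 0.0214 ± 0.0370 in MLN-OTII-WT libraries (31 reads and 1 read). Klk1b11 averaged 0.580 ± 0.204 and 0.0932 ± 0.111 (43 and 5 reads), and Klk1b26 0.137 ± 0.133 and 0.0417 ± 0.0722 (10 and 2 reads). They too had more reads in the knockout, at a lower level. Klk1b9 and Klk15 read 0 in all 6 GATIR libraries.

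Kallikrein transcripts resemble each other, and the counting could split or move reads between copies. The 14 Klk1 and Klk1b genes held 1367 reads in the 4 MLN-OTII-KO libraries and 57 in the 3 MLN-OTII-WT libraries, and Klk1b27 and Klk1b9 held 88.0% of the knockout reads. Of 50-base windows of the Klk1b27 transcript, 14.3% occur in another gene, mostly Klk1b24, and none in Klk1b9. Klk1b27 and Klk1b9 were identical at 84.6% of aligned transcript positions, and Klk1b27 and Klk15 at 51.8%. None of the Klk15 windows occurs in another gene. The small values of Klk1b8, Klk1b11, Klk1b16 and Klk1b24 are therefore uncertain.

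**Figure D2:**
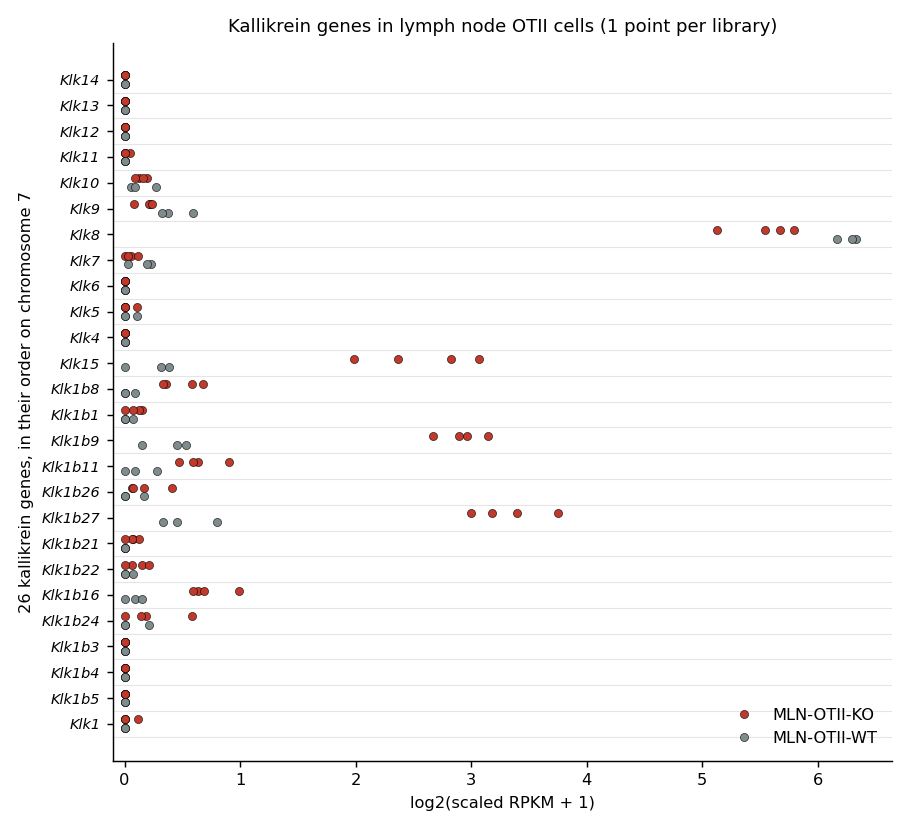
Each row is 1 of 26 kallikrein genes in chromosomal order, and each point is 1 lymph node OTII library on the log2(scaled RPKM + 1) axis, with the MLN-OTII-KO libraries above the MLN-OTII-WT libraries in each row. Klk15, Klk1b9 and Klk1b27 are high in knockout and near 0 in wild type libraries, with genes at lower levels between them, and Klk8 lies lower in the knockout.

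Wnt10a encodes a secreted Wnt ligand, a protein that signals through Frizzled receptors and, in the canonical branch, stabilises β-catenin. It lies on mm10 at chr1:74792019-74804175, plus strand. Wnt10a measured 5.56, 1.67, 9.94 and 13.6 in the MLN-OTII-KO libraries, against 0.167, 0.0481 and 0.0941 in the MLN-OTII-WT libraries. The counts were 228, 83, 443 and 503 reads in knockout and 6, 2 and 4 reads in wild type libraries. It had the widest spread in the knockout, with the highest library at 8.17 times the lowest and a coefficient of variation of 67.6%. The ratio of means was 74.6 (7.71 ± 5.21 and 0.103 ± 0.0602) and rests on 12 wild type reads. Replicate 2, the lowest, was still 9.98 times the highest wild type library. Outside the lymph node OTII groups Wnt10a was at or near 0. All 6 GATIR libraries held no read, which by counting error alone allows up to 0.0718 to 0.0872 per library. The cult-OTII-KO libraries held 4 reads and 1 read, and the cult-OTII-WT libraries 0 and 1.

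Wnt10a was the only Wnt ligand listed that reached 1 in any lymph node OTII library. The other 18 stayed below 1 there, with 0.334 as the highest value, and none was tested. Its neighbour Wnt6, 6700 bases away, averaged 0.129 ± 0.149 in MLN-OTII-KO and read 0 in MLN-OTII-WT libraries. Of 17 genes for Wnt secretion and receptors, 4 were tested and 1 rose. This was Wls, the carrier that takes Wnt proteins to the cell surface, at 3.13 ± 0.809 in MLN-OTII-KO and 0.937 ± 0.0364 in MLN-OTII-WT (log2 1.07, limma adjusted p 0.00183). Wls kept its call under all 14 alternatives. It reached the filter only through the knockout libraries (highest MLN-OTII-WT value 0.979), so neither its call nor the count is support for a direction. Of 23 transducers and targets, 17 were tested, 1 rose and 1 fell, with a median log2 difference of -0.03. Myc, which many pathways control, fell to 17.9 ± 2.36 in MLN-OTII-KO, against 29.2 ± 6.33 in MLN-OTII-WT (log2 -0.67, limma adjusted p 0.0186). The receptor-degrading ligase Znrf3 rose to 1.72 ± 0.0976, against 1.04 ± 0.221 in MLN-OTII-WT (log2 0.42, limma adjusted p 0.0382). The Myc and Znrf3 calls were lost under 6 and 9 of 14 alternatives. After averaging libraries with a common leading number the log2 difference of Myc was -0.58 (limma adjusted p 0.0705, up to 0.145 over the alternatives) and that of Znrf3 0.46 (0.0876, up to 0.575).

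Ifitm10 belongs to the interferon-induced transmembrane family, whose better known members restrict virus entry at membranes. Its own role is little known. It lies on mm10 at chr7:142355508-142372327, minus strand. Ifitm10 measured 7.93, 4.48, 7.90 and 14.7 in the MLN-OTII-KO libraries, against 0.448, 0.459 and 0.339 in the MLN-OTII-WT libraries. The means were 8.75 ± 4.28 and 0.415 ± 0.0665, a ratio of 21.1 that rests on 31 wild type reads. The reporter libraries varied widely. Ifitm10 measured 7.68, 0 and 1.68 in BAL-GATIR, against 0, 2.39 and 0.815 in MLN-GATIR libraries. The groups overlap, the log2 difference was 0.64 (SE 0.82) and it did not pass (limma adjusted p 0.725, alternatives 0.331 to 0.954). Without BAL-GATIR replicate 1 the difference was -0.16. In culture it measured 0.0847 and 0.126 in cult-OTII-KO, against 0.248 and 0.406 in cult-OTII-WT libraries, below the filter. The BAL-GATIR range overlapped that of MLN-OTII-KO, and of the neighbours in the order the cultures alone did not overlap.

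Relatives of Ifitm10 fell in the lymph node. Of 6 others listed, 3 were tested and 2 fell, with a median log2 difference of -1.65. Ifitm2 measured 16.1, 13.6, 11.6 and 9.37 in MLN-OTII-KO, against 36.5, 63.7 and 37.3 in MLN-OTII-WT libraries (log2 -1.75, limma adjusted p 0.00102), and kept its call under all 14 alternatives. Ifitm3 measured 11.5, 11.4, 3.41 and 3.46 in MLN-OTII-KO, against 20.7, 27.9 and 19.0 in MLN-OTII-WT libraries (log2 -1.65, limma adjusted p 0.0219). That call was lost under 5 of 14 alternatives. Ifitm1, named after its values were seen, averaged 0.628 ± 0.299 and 3.63 ± 2.52 and did not pass (adjusted p 0.0546). In the airway Ifitm3 rose to 149 ± 71.9 in BAL-GATIR, against 47.0 ± 10.03 in MLN-GATIR (log2 1.55, limma adjusted p 0.0294), a call lost under 7 of 12 alternatives.

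The start of Ifitm10 lies 3589 bases from the end of Ctsd, the gene of the lysosomal protease cathepsin D, which also rose. Ctsd averaged 374 ± 59.1 in MLN-OTII-KO and 147 ± 13.5 in MLN-OTII-WT libraries (log2 1.34, limma adjusted p 2.77e-04) and kept its call under all 14 alternatives. An annotated protein-coding gene on the same strand, Gm49369 (chr7:142371096-142382667), overlaps both, and 15.1% of 50-base windows of the Ifitm10 transcript occur in it. Reads of Ifitm10 and Gm49369 can therefore not be fully separated. As a share of Ctsd, Ifitm10 was 1.48% to 3.31% in MLN-OTII-KO and 0.250% to 0.322% in MLN-OTII-WT libraries, values that follow from the choice of Ifitm10. That share was 0% to 0.689% in BAL-GATIR and 0% to 0.439% in MLN-GATIR, where Ctsd was higher than in any OTII group (920 ± 203 and 584 ± 128). It was 0.0501% to 0.0777% in cult-OTII-KO and 0.128% to 0.216% in cult-OTII-WT libraries.

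**Figure D3:**
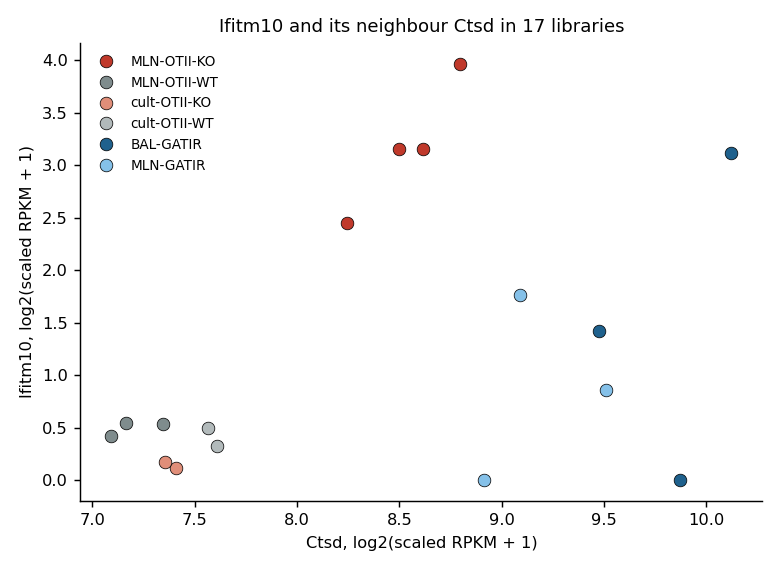
Each point is 1 of 17 libraries, with Ctsd on the horizontal and Ifitm10 on the vertical axis, both as log2(scaled RPKM + 1). The MLN-OTII-KO libraries are higher than the MLN-OTII-WT libraries on both axes, and the GATIR libraries have the highest Ctsd at Ifitm10 values from 0 to 7.68 scaled RPKM.

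In the comparison of BAL-GATIR with MLN-GATIR, which did not choose the genes, 3 of the 6 passed the filter (Cass4, Sorl1 and Ifitm10) and none passed the test by limma, where 5.27% of 10111 genes did (300 higher, 2.97%, and 233 lower, 2.3%) and 19.9% had an unadjusted p under the threshold. With RPKM as deposited the calls were 546, of which 229 were higher. The median log2 difference of all genes was -0.07, and -0.20 with RPKM as deposited. By limma-voom on reads none of the 3 passed either, and in the fit of all 6 groups Sorl1 did. The airway libraries stood apart in more than place. Their 8 macrophage markers summed to 3083 to 7264 in BAL-GATIR, against 10.99 to 49.99 in MLN-GATIR, where Marco, Mrc1, Ear2 and Adgre1 read 0. The 6 basophil markers summed to 148 to 276 in BAL-GATIR and to 554 to 880 in MLN-GATIR. Of these markers, Fcer1a, Gata2 and Ms4a2 were at 0 in both, and Cpa3 was at 0 in BAL-GATIR. The part of these cells in the airway values of Cass4, Sorl1, Klk1b27 and Ifitm10, and of the list genes called below, was not tested. Replicates correlated at 0.897 to 0.934 across genes in BAL-GATIR and at 0.968 to 0.979 in MLN-GATIR, and at 0.991 or more in the lymph node OTII groups. Of 59 other list genes tested, 3 rose and 1 fell (median log2 -0.09). Besides Aplp2 and Ifitm3, Camk1 rose to 16.7 ± 12.1 in BAL-GATIR, against 0.845 ± 0.751 in MLN-GATIR (log2 3.16, limma adjusted p 0.0232). Camk1 read 0, 1.10 and 1.44 in the MLN-GATIR libraries and reached the filter only with the BAL-GATIR libraries. Neither its call, lost under 6 of 12 alternatives, nor its place in the count is therefore support for a direction. Calm3 fell to 80.4 ± 3.99, against 161 ± 10.2 in MLN-GATIR (log2 -0.99, limma adjusted p 0.00824), with its call lost under 2 of 12.

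In the culture comparison 3 of the 6 genes passed the filter (Cass4, Sorl1 and Nrgn). None passed the test by limma, where 0% of 10968 genes did, 2.33% had an unadjusted p under the threshold, and limma-voom on reads called 2. No gene of the lists passed among 63 tested (median log2 0.03, against 0.00 over all genes). The design has 2 libraries per arm, and a p that misses the threshold does not show equal levels. Notch1 itself, named by the knockout label, did not pass in culture (log2 -3.14, limma adjusted p 0.333). The lymph node differences of Cass4, Sorl1 and Nrgn were 2.39, 1.87 and 2.89, and those in culture -0.42, -0.24 and 0.76, given side by side. Klk1b27, Wnt10a and Ifitm10 were below the filter in both cultures, with no library above 0.406.

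**Figure D4:**
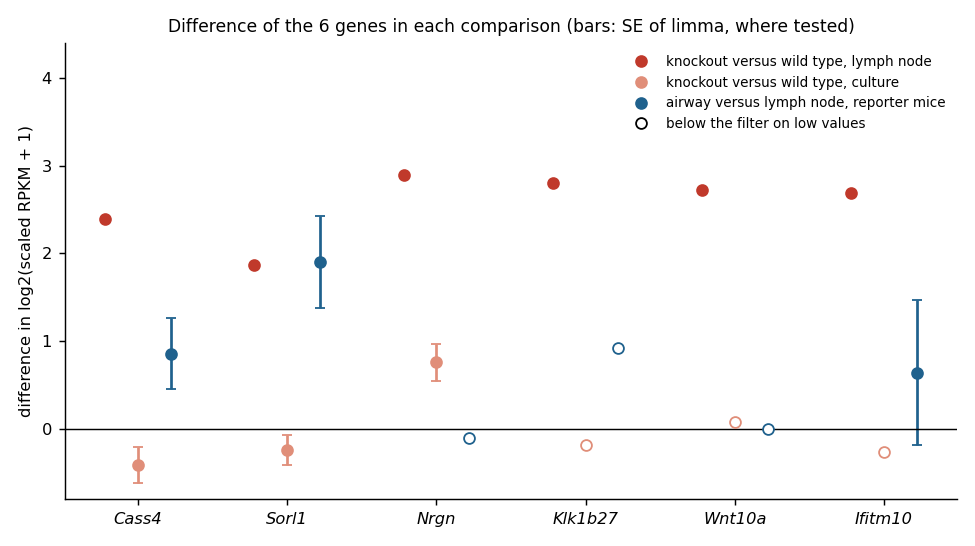
The vertical axis is the difference in log2(scaled RPKM + 1), knockout minus wild type in lymph node and culture and airway minus lymph node in reporter mice, with the SE from limma where a test was made. Lymph node knockout differences run from 1.87 to 2.89 and chose the genes, culture differences from -0.42 to 0.76, and airway differences from -0.10 to 1.89.

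The 6 genes did not form a single pattern over the 17 libraries. Pearson's r of log2(scaled RPKM + 1) was 0.91 for Klk1b27 with Ifitm10, 0.90 for Klk1b27 with Wnt10a and 0.86 for Nrgn with Wnt10a. Cass4 had the lowest values, at 0.06 with Sorl1, -0.10 with Nrgn, 0.30 with Wnt10a and 0.43 with Klk1b27, and its 0.62 with Ifitm10 was close to the 0.59 of Nrgn with Ifitm10. These values describe 17 libraries that fall into 6 groups, among them those that chose the genes. Within MLN-OTII-KO, replicate 4 was highest for all but Sorl1, and replicate 2 was lowest for Sorl1, Nrgn, Wnt10a and Ifitm10. Over all alternatives the lymph node log2 differences ran from 1.82 (Sorl1) to 5.77 (Wnt10a).

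Among 9732 genes searched, the 3 most like each member over the 17 libraries are given as a description. Most like Cass4 were Ctsd (r 0.95), the receptor gene Igflr1 (0.90) and the lysosomal membrane protein gene Litaf (0.90). All 3 were highest in BAL-GATIR, the libraries with the high macrophage marker sums, whose part in these levels was not tested. Most like Sorl1 were the MHC class I regulator Nlrc5 (0.97), the kinesin gene Kif13b (0.96) and the zinc finger gene Trerf1 (0.94). Trerf1 averaged 47.0 ± 5.60 in MLN-OTII-KO and 12.9 ± 0.629 in MLN-OTII-WT libraries, and lay at 6.21 ± 0.769 in BAL-GATIR and 1.46 ± 0.479 in MLN-GATIR. Most like Nrgn were the semaphorin gene Sema4c (0.98), the potassium channel subunit gene Kcnmb4 (0.98) and its antisense partner Kcnmb4os1 (0.98). Whether the reads of Kcnmb4 and Kcnmb4os1 were kept apart was not checked. Most like Klk1b27 were the growth factor gene Pdgfb (0.94), Klk15 (0.93) and Klk1b9 (0.93). Most like Wnt10a were Klk15 (0.97), the T cell growth factor gene Il2 (0.96) and Klk1b9 (0.95). Il2 averaged 4.84 ± 1.23 in MLN-OTII-KO and 0.395 ± 0.0460 in MLN-OTII-WT libraries, and read 0 in all 4 cultures. Most like Ifitm10 were Klk1b27 (0.91), Pdgfb (0.90) and the dystrobrevin gene Dtnb (0.88). Pdgfb averaged 7.09 ± 1.41 in MLN-OTII-KO and 0.756 ± 0.103 in MLN-OTII-WT libraries.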

How the data were processed

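The authors deposited 1 table of RPKM for each of 17 libraries, with 24537 genes and 1 RefSeq transcript per gene on mm10. Per the submitters' processing notes, HISAT2 2.0.4, HOMER and DESeq2 were used. Low deposited RPKM values were whole multiples of 1 read (tolerance 0.1, checked below 50 reads, 100% whole), which gave the reads behind each value. Intervals and floors cover counting error only.

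RPKM was scaled by a median-of-ratios factor over the 6796 genes that reached an RPKM of 1 in every library. Groups followed the titles. Each comparison used limma 3.58.1 in R 4.3.3 (trend), two-sided, on log2(scaled RPKM + 1), with Benjamini-Hochberg adjustment across all tested genes and a threshold of 0.05. Tested genes reached a scaled RPKM of 1 in at least the number of libraries in the smaller group. A fold on this scale understates low genes. Rose and fell are kept for called genes. The test was checked on simulated data.

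The members and the 8 gene lists were chosen with earlier results of these data known. Named genes were the members, up to 3 called genes per list in the lymph node and 2 elsewhere, nearest neighbours, the 3 most alike per member by Pearson's r (group mean of at least 2), and Notch1, Notch2 and Dtx1. Alternatives changed scaling, pseudocount (0.1), filter, test, block, samples fitted and library left out. A further 2 were added after seeing the data, averaging by header number and a crossed block. Protein sequences and the promoter of Wnt10a were not used here.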

Additional observations from a re-analysis of the deposited data

Results flagged for a closer look

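Cass4 and Sorl1 lay on opposite sides in the 2 settings. In the lymph node every MLN-OTII-KO library was above every MLN-OTII-WT library, which chose the genes, with log2 differences of 2.39 and 1.87. In culture every cult-OTII-KO library was below every cult-OTII-WT library, with log2 differences of -0.42 for Cass4 and -0.24 for Sorl1. The difference between lymph node and culture was not tested, and neither culture difference passed. Of 10968 genes tested in culture, 10.8% had knockout values wholly below wild type ones.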

How the results depend on the processing

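No member passed in culture under any alternative run, and in the airway comparison Sorl1 passed in the fit of all 6 groups (1 member called). Cass4 and Sorl1 kept the direction of their airway differences throughout, and that of Ifitm10 ran from -0.16 (without BAL-GATIR replicate 1) to 1.40 (without replicate 2) with 1 library left out. In the lymph node the choice of the members fixes their direction, and the log2 difference depended on the pseudocount for low genes. With a pseudocount of 0.1 and with limma-voom it was 2.73 and 2.75 for Cass4, 4.12 and 4.31 for Klk1b27, 4.95 and 5.77 for Wnt10a, and 3.99 and 4.16 for Ifitm10.

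Airway calls (533) became 224 with no filter, 223 with limma-voom, 2705 in the fit of all 6 groups and 113 to 554 with 1 library left out. The 4 list genes called there became 2, 2, 16 and 0 to 5 in the same order, and 2 with a pseudocount of 0.1. Culture calls (0) became 2 with limma-voom, 8 with the crossed block and 0 to 65 with 1 library left out, where the lone library of an arm is assumed to vary like the other arm. Lymph node calls (1965) became 353 in the fit of all 6 groups, 1912 after averaging by header number and 1008 to 2716 with 1 library left out. The 18 list genes called there became 6 and 15, and 8 to 19 with 1 library left out. The causes were not tested. Of 36 calls of named genes followed over the airway and lymph node comparisons, 18 held under every alternative, all of them in the lymph node. Among the 18 are label checks, genes named for a call in a list, and genes named for likeness to a member. That likeness was taken over libraries that chose the members. Klk1b9, Klk15, Wls, Il2 and Pdgfb also reached the filter only through the knockout libraries. The count of 18 is therefore no support for a direction. A gene followed in both comparisons counts once for each.

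Replicate numbers were not found to pair the libraries. Same-numbered libraries deviated with r of 0.00 to 0.03 in the airway comparison, -0.19 in culture and -0.06 to -0.32 in the lymph node. Libraries of differing numbers ran from -0.39 to 0.50 in the lymph node, and to 0.19 in culture, where 2 libraries per arm force equal and opposite values. By header, lymph node replicate 2 is KO1-2 in knockout and WT2-1 in wild type, so the block there joined different leading numbers. With the replicate block the calls were 403 in the airway, 65 in culture (1 of them a list gene) and 636 in the lymph node (9 of them list genes). The lymph node block also takes MLN-OTII-KO replicate 4, which has no wild type partner, out of the difference, and leaving that library out with no block gave 1303 calls. In culture the negative value led to a crossed pairing, with the 8 calls given above.

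Depth limits the low members. The wild type lymph node values of Klk1b27, Wnt10a and Ifitm10 rest on 25, 12 and 31 reads over 3 libraries, so their ratios are known only roughly.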
